A study of Mus musculus with 4 samples.

Results

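The PIWI proteins Piwil1, Piwil2 and Piwil4 and 7 germline partners of the piRNA pathway, Ddx4, Mael, Tdrd1, Tdrd9, Tdrkh, Mov10l1 and Asz1, were examined in mouse ovarian cancer cells. The 10 genes were chosen by name as the PIWI genes and partners that act with them in the germline, and Piwil2 was chosen by its change between ID8-PW2 and ID8-P0 cells in the study's own comparison. All 10 were among the 23875 genes listed in the deposited table.

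PIWI proteins are the germline branch of the Argonaute family. They bind PIWI-interacting RNAs (piRNAs), small RNAs that are cut from long single-stranded precursors without Dicer, and use them to silence transposons, by cutting transposon transcripts in the cytoplasm and by directing DNA methylation in the nucleus of fetal male germ cells. In the mouse, piRNAs are made in granules near mitochondria, where Tudor proteins bind methylated arginines of the PIWI proteins and hold the helicases, nucleases and trimming enzymes together. Most adult somatic tissues use little of this pathway, while the other Argonaute proteins, which load microRNAs, act in nearly every cell.

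RNA was sequenced from 2 libraries of ID8-PW2 cells and 2 libraries of ID8-P0 cells. ID8-P0 is the parental line, which arose from C57BL/6 mouse ovarian surface epithelial cells that transformed in culture and which carries GFP and luciferase. ID8-PW2 is a line grown from tumor cells of the peritoneal wall after 2 passages through C57BL/6 mice. Both lines are labelled wild type in genotype, both were held in suspension for 24 h on a surface that prevents attachment, and the duplicates of a line are libraries of that line and not separately passaged tumors. The ID8-PW2 libraries were run on lanes 4 and 8 and both ID8-P0 libraries on lane 3, so the lane and the group cannot be told apart.

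The question behind the choice of these genes was whether Piwil2 alone among them was higher in ID8-PW2 cells than in ID8-P0 cells, and that question was not analysed here. The 4 columns of read counts carry names that match no sample, and the columns of fold change and p hold the study's own comparison. None of these was used. What follows rests on 2 columns, the authors' mean level of each gene over the libraries of both groups and the authors' dispersion. The mean level is in CPM, the reads of a gene scaled by the total of its library, and has no standard deviation or depth per library behind it. A gene that differs between the groups has a mean that describes neither of them. As Piwil2 was chosen by its change, its level here is a description with no test.

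Among the 10 genes, Piwil2 had the highest mean level over the libraries of both groups. Since Piwil2 was chosen by its change between the groups, its rank and share here are not separate from that choice. Piwil2 stood at 20.4 CPM and Tdrkh at 2.25 CPM, and the other 8 genes lay between 0.163 and 0.651 CPM. Piwil2 held 80.7% of the 25.3 CPM summed over the 10 genes. A level of 1 CPM or more was reached by 2 of the 10 (20%), against 56.5% of the 20674 protein-coding genes and 51.2% of all genes listed. The lowest level in the table, 0.163 CPM, was shared by 4561 genes. edgeR, which made these means, adds a small count before it averages, so that a gene at or near this level may have had few or no reads, and its mean is not a measure of its amount.

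**Figure D1:**
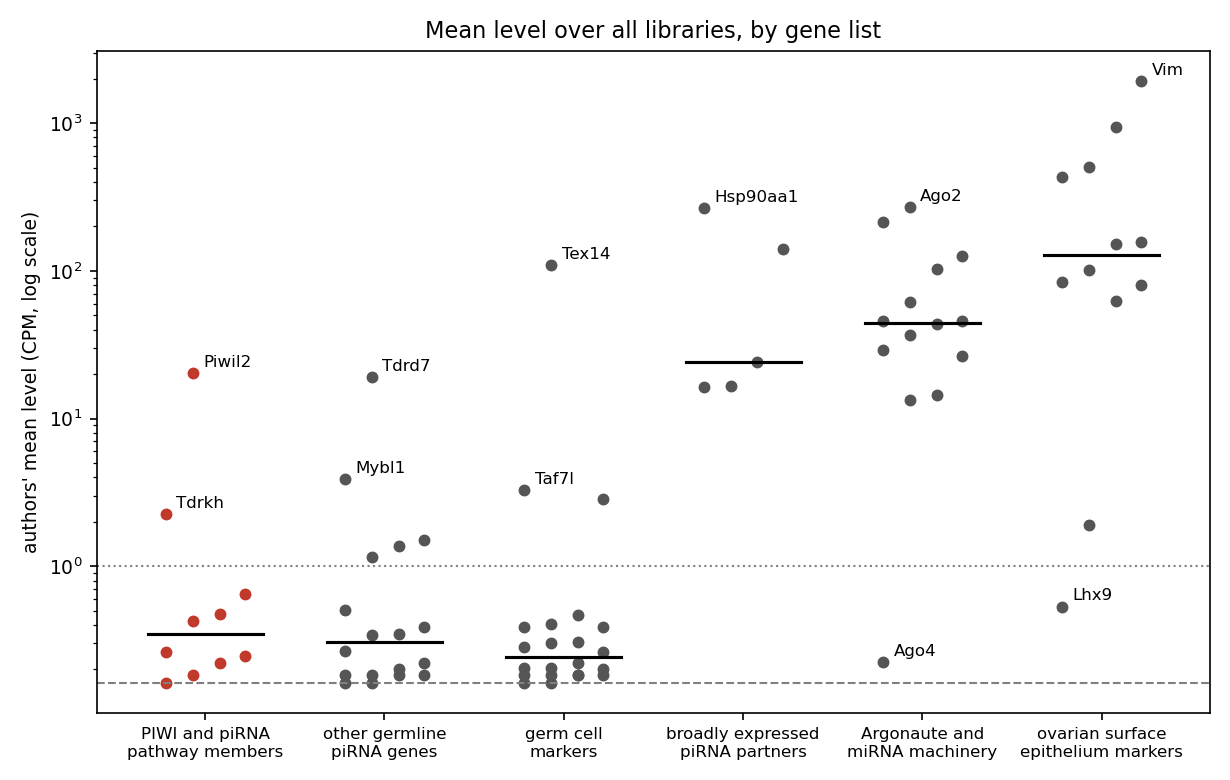
Mean level of each gene in CPM (log scale, authors' mean over all libraries) for the 10 PIWI and piRNA pathway members (red) and 5 other gene lists (grey). Bars mark the list medians, the dotted line 1 CPM and the dashed line the lowest level in the table, 0.163 CPM; Piwil2 at 20.4 CPM and Tdrkh at 2.25 CPM are the members above the dotted line.

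The promoters of these genes carry sequence features that the choice did not use. RefSeq windows on GRCm38.p6, which span 250 bases before and 50 bases after an annotated start, were given for 9 of the 10 genes, with 12 windows in all, because Piwil4 had 2 and Tdrd1 had 3. Piwil2 had no entry. The windows of Piwil1, Ddx4, Tdrd9 and Mael below hold the E-box CACGTG, a palindrome bound by factors with a basic helix-loop-helix domain. The window of Tdrkh is shown because Tdrkh is the matched member at or above 1 CPM, and it holds none. Windows of Mov10l1 and Tdrd1 also hold CACGTG and are not shown. Capitals mark CACGTG, and each window reads 5′ to 3′ on the strand of its gene.
Piwil1, chr5:128735996-128736295, plus strand: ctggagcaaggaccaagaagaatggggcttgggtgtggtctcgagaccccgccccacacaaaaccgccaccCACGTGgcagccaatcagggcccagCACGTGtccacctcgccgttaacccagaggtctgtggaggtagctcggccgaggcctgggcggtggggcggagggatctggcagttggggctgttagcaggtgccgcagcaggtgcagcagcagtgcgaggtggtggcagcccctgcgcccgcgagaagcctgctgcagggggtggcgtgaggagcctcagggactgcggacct
Ddx4, chr13:112652261-112652560, minus strand: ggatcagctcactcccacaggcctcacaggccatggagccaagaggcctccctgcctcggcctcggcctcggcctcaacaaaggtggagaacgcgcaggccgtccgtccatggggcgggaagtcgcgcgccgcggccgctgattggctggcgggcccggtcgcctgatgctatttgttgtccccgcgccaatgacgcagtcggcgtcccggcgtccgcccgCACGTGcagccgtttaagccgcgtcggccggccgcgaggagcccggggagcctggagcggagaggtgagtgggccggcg
Tdrd9, chr12:111971309-111971608, plus strand: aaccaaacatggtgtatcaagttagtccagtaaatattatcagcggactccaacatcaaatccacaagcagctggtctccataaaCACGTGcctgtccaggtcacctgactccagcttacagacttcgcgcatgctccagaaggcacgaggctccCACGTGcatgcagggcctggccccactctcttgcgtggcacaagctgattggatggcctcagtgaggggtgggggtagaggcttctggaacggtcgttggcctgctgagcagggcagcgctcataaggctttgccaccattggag
Mael, chr1:166238695-166238994, minus strand: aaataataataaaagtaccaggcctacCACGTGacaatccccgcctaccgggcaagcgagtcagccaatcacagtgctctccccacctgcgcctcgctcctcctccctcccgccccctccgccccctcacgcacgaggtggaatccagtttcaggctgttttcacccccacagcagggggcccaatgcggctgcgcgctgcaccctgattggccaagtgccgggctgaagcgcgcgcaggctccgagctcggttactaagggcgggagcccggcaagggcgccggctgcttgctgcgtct
Tdrkh, chr3:94412994-94413293, plus strand: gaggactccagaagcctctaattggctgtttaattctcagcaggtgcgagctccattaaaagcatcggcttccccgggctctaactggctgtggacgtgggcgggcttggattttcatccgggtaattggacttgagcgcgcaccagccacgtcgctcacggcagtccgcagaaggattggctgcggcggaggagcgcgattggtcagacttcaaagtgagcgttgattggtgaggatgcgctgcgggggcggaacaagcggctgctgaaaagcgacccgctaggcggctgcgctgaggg

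CACGTG was found in the windows of 6 of the 9 genes (66.7%). It was found in 2187 of all 27025 genes with a window (8.09%). The motif holds a CpG and is therefore more frequent where CpGs are: among the 12388 genes with a window of at least 10 CpGs, 12.3% had it, and all 9 matched members belong to that class. Piwil1 had it at positions -179 and -154 from the start and Tdrd9 at -165 and -95, where each position is that of the first base of the motif and -1 is the base before the start. Ddx4 had it at -29, Mael at -223 and Mov10l1 at -246. The match in Tdrd1 is 1 site seen in overlapping windows, at -11 from one start and -77 from the other. Tdrkh, Asz1 and Piwil4 had none in these windows. All 6 genes with the motif had mean levels under 1 CPM, and so did Asz1 and Piwil4 without it. The motif was also found in 4 of 12 matched genes among further germline piRNA factors, in 7 of 18 germ cell markers, in 1 of 4 broadly expressed partners, in 1 of 13 genes of the Argonaute and microRNA machinery and in none of 6 ovarian surface epithelium markers. These counts are descriptions and a match is not a bound site.

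The other motifs searched were found in the members at shares near those of all genes with a window. TCCCGC also holds a CpG, and its share among genes with windows of at least 10 CpGs was not computed. TCCCGC, the core recognised by E2F factors, was searched on both strands and found in 2 of the 9 genes, Ddx4 and Mael (22.2%), against 5959 of the 27025 genes with a window. The same letters were found in 3 of 12 further germline piRNA factors, 10 of 18 germ cell markers, 4 of 4 broadly expressed partners, 10 of 13 Argonaute and microRNA genes and 1 of 6 ovarian surface epithelium markers. The MYB motif, written CAACNG or TAACNG and searched on both strands, was found in 5 of the 9 (55.6%, against 53.1%). None of the motifs contains another, and CACGTG reads the same on both strands.

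The windows of the members were rich in CpG. Ddx4 had 38 CpGs in its 300 bases, more than most windows of the genome have. Tdrkh had 25, Mael 24, Mov10l1 20, Piwil1 18, Asz1 17 and Tdrd9 10. The windows of Tdrd1 had 20, 25 and 3, and those of Piwil4 had 11 and 0. The median of all windows was 7, with quartiles of 3 and 20, and 10 of the 12 member windows were above the median. When the richest window of each gene was taken, the median was 20 for the 9 members and 8 for all genes. Tdrkh with 25 CpGs stood at 2.25 CPM and Mael with 24 at 0.183 CPM, close to the lowest level. This pair was alike in CpG count and unlike in level. Ddx4 with 38 CpGs stood at 0.428 CPM. Methylation was not measured in these libraries.

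**Figure D2:**
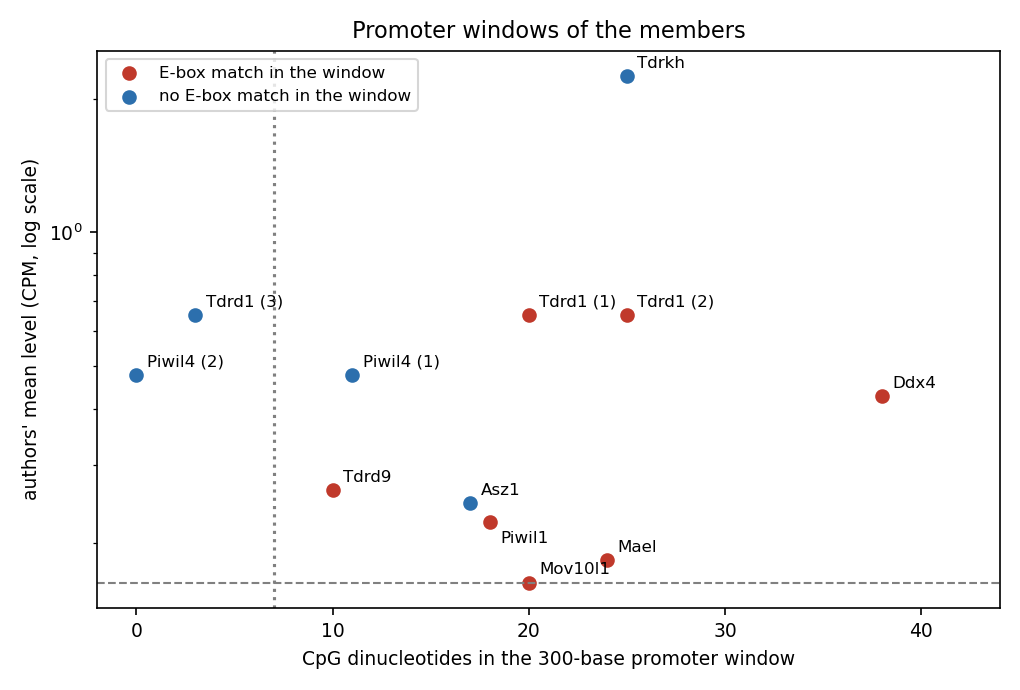
Number of CpG dinucleotides in each 300-base promoter window against the mean level of its gene (CPM, log scale, authors' mean over all libraries), with windows that hold the E-box in red and the others in blue; numbers in brackets tell apart the windows of a gene. The dotted line is the median of all windows, 7 CpGs, and the dashed line the lowest level in the table; 10 of the 12 windows lie to the right of the dotted line.

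Among the PIWI genes, Piwil2 had the highest mean level, and its choice by a change between the groups bears on that level. Piwil2 (MILI in the mouse) is the cytoplasmic PIWI protein that starts piRNA production in fetal male germ cells and stays on into adult spermatogenesis. The gene, ENSMUSG00000033644, lies on the minus strand at chr14:70372480-70429094, has up to 23 exons in GENCODE M21 and has 5287 bases of exon over its 3 transcripts. Its mean level was 4.35 on the log2 CPM scale, or 20.4 CPM. It ranked 5725 of all 23875 genes and 5494 of the protein-coding genes, and 76.0% of the genes listed had a lower level. Per kilobase of exon it stood at 3.85 CPM, higher than 70.4% of the protein-coding genes.

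Piwil1 (MIWI), which binds piRNAs in meiotic and later male germ cells, was at 0.223 CPM or 0.0511 CPM per kilobase of exon. It lies at chr5:128736246-128755474. Piwil4 (MIWI2), the PIWI protein that enters the nucleus of fetal germ cells, was at 0.478 CPM or 0.0888 CPM per kilobase and lies at chr9:14696230-14740733. Per kilobase, the order was Piwil2, Piwil4 and Piwil1. Whether Piwil4 and Piwil1 differ was not tested, since no values per library were used and the dispersion of Piwil1 was at the upper bound of the estimate.

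Of the 3 Tudor proteins among the 10 genes, Tdrkh was the highest. Tdrkh, which sits on mitochondria and takes part in the trimming of piRNA 3′ ends, was at 2.25 CPM or 0.366 CPM per kilobase and lies at chr3:94413296-94432633. The mean of Piwil2 over both groups was 9.06 times as high by CPM and 10.5 times as high per kilobase of exon. In GENCODE M21 the region of Tdrkh overlaps Oaz3 and the pseudogene Gm42464 on the opposite strand, and Gm42463 on its own strand. The libraries were stranded, but whether the counting used the strand is not given in the sources used here. What share of the Tdrkh reads came from these overlaps was not tested. Tdrd1, which binds methylated Piwil2 in germ cell granules, was at 0.651 CPM or 0.120 CPM per kilobase and lies at chr19:56826209-56870012. Tdrd9, a Tudor protein with a helicase domain that works with Piwil4, was at 0.263 CPM or 0.0486 CPM per kilobase and lies at chr12:111971559-112068854.

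Ddx4, Mov10l1, Mael and Asz1, the helicases and granule proteins among the 10 genes, were under 1 CPM. Ddx4 (mouse VASA), a DEAD-box helicase used as a marker of germ cells, was at 0.428 CPM or 0.142 CPM per kilobase and lies at chr13:112598333-112652310. Mov10l1, the helicase that binds piRNA precursors and passes them to the nuclease, was at the lowest level of the table and lies at chr15:88982909-89055152. Mael, a granule protein needed for transposon silencing, was at 0.183 CPM, 1.12 times the lowest level, and lies at chr1:166201385-166238744. Asz1, an ankyrin repeat protein of the mitochondrial surface, was at 0.246 CPM, 1.51 times the lowest level, and lies at chr6:18050964-18109061. Per kilobase, Mael stood at 0.105 CPM, Asz1 at 0.0868 CPM and Mov10l1 at 0.0389 CPM. For genes this close to the lowest level the value per kilobase follows the length of the gene: Mael, with 1733 bases of exon, stood above Piwil1, with 4358, per kilobase and below it in CPM.

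**Figure D3:**
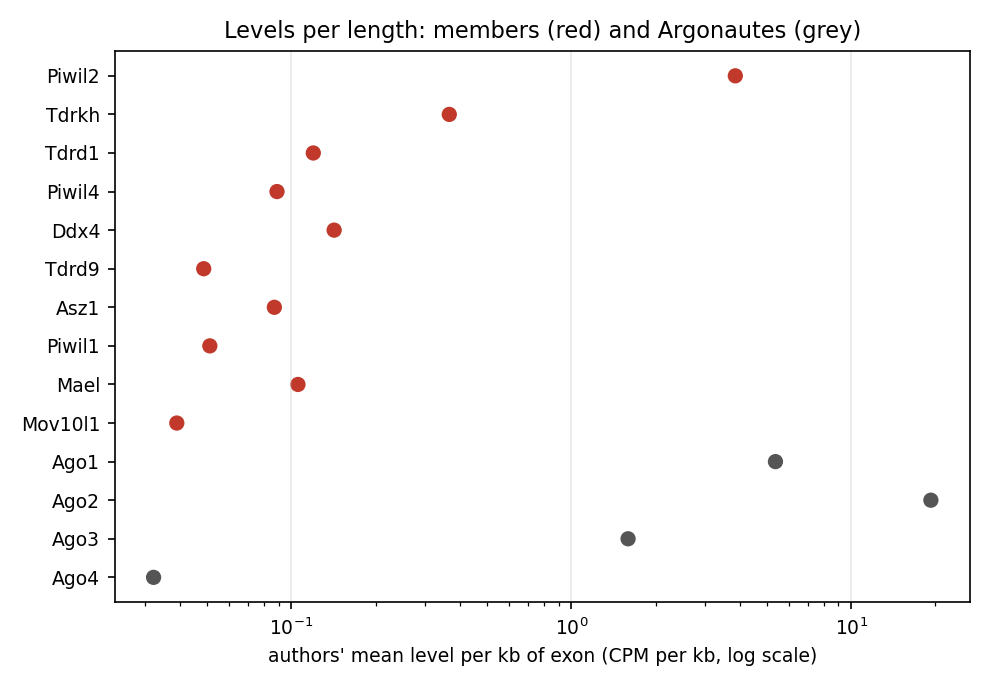
Mean level per kilobase of exon (CPM per kb, log scale, authors' mean over all libraries) of the 10 members (red, ordered by their CPM) and the 4 Argonaute genes that are not PIWI genes (grey). Piwil2 at 3.85 CPM per kb lies between Ago1 at 5.36 and Ago3 at 1.59 CPM per kb, and the other members lie at 0.366 CPM per kb or lower. The order within either group was not examined.

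Few 50-base windows of the members' transcripts were found in full in transcripts of other genes. The study's mapping allowed mismatches and reads with several places. Inexact matches, and matches outside annotated transcripts, were not searched. Of the 5284 windows of 50 bases along the Piwil2 transcripts, 0 were found in transcripts of another gene in GENCODE M21. Tdrkh shared 29 of 6365 windows (0.456%), Piwil1 shared 6 of 4356 and Tdrd1 shared 1 of 5406. The other 6 genes shared none. Within the Piwil2 gene, the snoRNA gene Gm22725 lies in an intron and stood at the lowest level of the table. In GENCODE M21 the snRNA gene Gm24890 also overlaps Piwil2 on the same strand. Gm24890 was not among the genes listed next to Piwil2, and its level is not given here.

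The spread between libraries of a group was examined through the dispersion. The square root of the dispersion gives the biological coefficient of variation (BCV), the variation between libraries of a group beyond counting error as edgeR estimates it. The BCV of Piwil2 was 9.31%. Among the 2274 genes within 0.5 log2 units of its level, the median was 9.16% and the 5th to 95th percentiles were 7.64% to 12.3%. Piwil2 thus lay near the middle of genes of its level. How far the authors' estimate for a gene was drawn from genes of like level is not given in the sources used here. The BCV of Tdrkh was 17.4%, against a median of 19.0% among the 1011 genes near its level. It was 31.5% for Tdrd1, 27.9% for Piwil4, 38.8% for Ddx4 and 71.5% for Tdrd9. Asz1, Piwil1 and Mael had the highest dispersion in the table (a BCV of 73.6%, shared by 3638 genes) and Mov10l1 the lowest (1.15%, shared by 2889 genes). Values at these bounds are limits of the estimate and not spreads. The median BCV of genes at or above 1 CPM was 9.77%.

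Most further germline factors of the pathway were low as well. Of 19 listed factors, 18 were in the table, and 5 of the 18 (27.8%) reached 1 CPM. Tdrd7, a Tudor protein of germ cell granules that also acts in the lens, stood at 19.0 CPM or 4.80 CPM per kilobase. Mybl1 (A-MYB), the transcription factor of the pachytene piRNA genes, stood at 3.86 CPM or 0.715 CPM per kilobase. Pld6, the mitochondrial nuclease that cuts piRNA precursors, was at 1.37 CPM, Exd1 was at 1.51 CPM and Tdrd5 at 1.16 CPM. The other 13 lay between 0.163 and 0.502 CPM. Among them were Henmt1, which methylates piRNA 3′ ends, at 0.203 CPM, Pnldc1, the trimming enzyme, at 0.386 CPM, and Gtsf1, a partner of PIWI proteins, at the lowest level. The median was 0.346 CPM for the 10 members, 0.305 CPM for these 18 genes and 1.22 CPM for all genes listed. Per kilobase of exon the median was 0.0971 CPM for the members, 0.0925 CPM for the 18 genes and 0.866 CPM for all genes. Most of the members and of the 18 genes were under 1 CPM. Close to the lowest level the value per kilobase follows the length of the gene, so these medians partly reflect length.

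Partners that are also used outside the germline were all present. The 5 listed were Hsp90aa1, a chaperone that takes part in loading small RNAs, at 265 CPM, Snd1 at 140 CPM, Wdr77 at 24.1 CPM, Tdrd3 at 16.5 CPM and Prmt5, the enzyme that methylates arginines of PIWI proteins, at 16.3 CPM. Per kilobase, the mean of Piwil2 over both groups, 3.85 CPM, lay between Prmt5 at 4.13 CPM and Tdrd3 at 2.72 CPM. The order within either line was not examined.

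The Argonaute and microRNA branch was abundant beside the PIWI branch. Of its 14 listed genes, 13 reached 1 CPM (92.9%), with a median of 44.6 CPM. Per kilobase, Piwil2 at 3.85 CPM was lower than Ago2, the Argonaute that cuts its targets, at 19.3 CPM, and Ago1 at 5.36 CPM. Piwil2 was higher per kilobase than Ago3 at 1.59 CPM and Ago4 at 0.0321 CPM. By CPM the order with Ago3 was reversed: Ago3, with 16571 bases of exon, stood at 26.4 CPM and Piwil2 at 20.4 CPM. These orders hold for means over both groups, and the order within ID8-PW2 or ID8-P0 cells was not examined. Tnrc6b, a scaffold of microRNA silencing, stood at 215 CPM. Mov10, the relative of Mov10l1 that is used outside the germline, stood at 6.52 CPM per kilobase, against 0.0389 CPM per kilobase for Mov10l1.

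The labelled cell type was checked against its markers. Of 12 markers of ovarian surface epithelium, 11 reached 1 CPM (91.7%), against 51.2% of all genes listed. Vim stood at 1932 CPM and Krt19 at 938 CPM, while Krt7 stood at 1.91 CPM and Lhx9 at 0.533 CPM. Of 22 germ cell markers, 3 reached 1 CPM (13.6%), namely Tex14 at 110 CPM, Taf7l at 3.29 CPM and Zp3 at 2.86 CPM. Without Tex14, which serves the bridges between germ cells, the other 21 ranged from 0.163 to 3.29 CPM with a median of 0.223 CPM. Dazl stood at 0.183 CPM, Sycp3 at 0.304 CPM and Sycp2 at the lowest level. The germ cell marker Ddx4 is itself a member, at 0.428 CPM.

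Genes around Piwil2 on chromosome 14 were at levels above and below it. The 10 listed genes on each side span 742 kb, and 15 of these 20 reached 1 CPM. The nearest gene with exons outside Piwil2 on the one side, Slc39a14, a metal ion transporter, stood at 19.8 CPM and 1.88 CPM per kilobase, 21.1 kb away. On the other side Polr3d, a subunit of RNA polymerase III, stood at 8.44 CPM and 2.96 CPM per kilobase, 9.65 kb away. Of the 17 protein-coding neighbours, 4 had a higher level per kilobase than Piwil2, namely Sorbs3 at 39.4 CPM, Bin3 at 9.61 CPM, Ccar2 at 5.49 CPM and Pdlim2 at 4.49 CPM. Phyhip and Sftpc, on the side of Polr3d, were at the lowest level. The median of the 20 was 6.46 CPM. All of these levels are means over both groups, and where Piwil2 stands among its neighbours in either line was not examined.

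**Figure D4:**
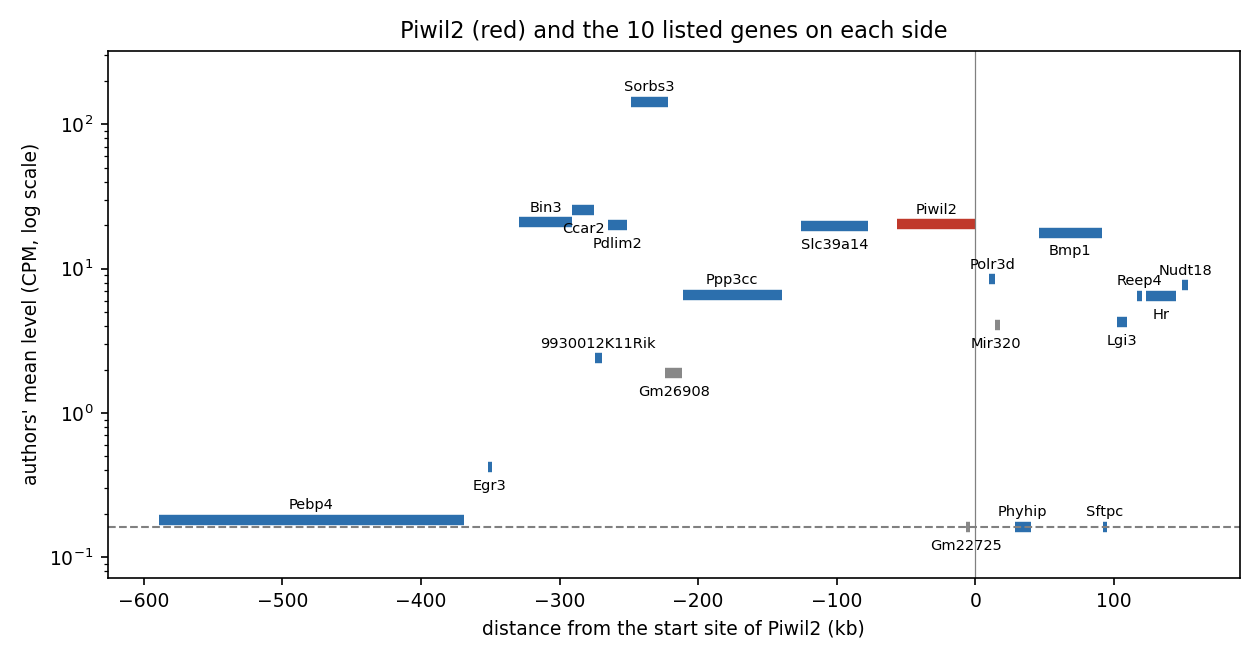
Mean level (CPM, log scale, authors' mean over all libraries) of Piwil2 (red) and the 10 listed genes on each side, protein-coding in blue and others in grey, by distance from the Piwil2 start site in kb. Each bar spans its gene, and the dashed line is the lowest level in the table; 3 of the 20 neighbours, Sorbs3, Ccar2 and Bin3, lie above the 20.4 CPM of Piwil2.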

How the data were processed

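The large RNA fraction of 4 libraries, 2 of ID8-PW2 and 2 of ID8-P0 cells, was sequenced on the stranded protocol of the study after a duplex-specific nuclease had depleted rRNA. Per the submitters' processing notes, the authors used CASAVA 1.8.2, Trimmomatic 0.22, TopHat2 2.0.6, Bowtie2 2.0.2 and edgeR 3.20.8. Reads that map to several places were allowed, and reads were summed per gene with scripts of the study. The notes name the human build hg19, while identifiers and coordinates are mouse: 23382 of 23875 identifiers are in GENCODE M21 (GRCm38), where 18929 genes share a start or an end with the table. The log2 CPM values are the authors' mean per gene over all libraries, as deposited. The dispersion is a score per gene that the authors estimated, as deposited. The table also holds 4 columns of counts under names that match no sample, which were given to none and used in no step, and the authors' fold change, p-value, FDR and call columns, which hold the study's own comparison and were not used. Depth per library is therefore not given, and the planned edgeR tests between the groups could not be run.

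CPM was 2 to the power of the log2 CPM, and the BCV was taken from the dispersion as its square root. A level per kilobase is the CPM over the bases in any exon of the gene in M21. Windows of 50 bases were compared between genes over the M21 transcripts. Gm26924, the top gene by level, took 29.7% of the summed mean CPM. Lars2 took 6.57%, and the source of the reads of these genes was not examined. Promoter windows are those of RefSeq on GRCm38.p6. Computing used Python 3.11.15, numpy 2.4.6, pandas 2.3.3 and matplotlib 3.10.9. The comparison of 50-base windows was tested on simulated sequences, and the exon length and CpG count on short made inputs.

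The members, lists and motifs were chosen with earlier results of these data known. Named genes are the members, the 2 most abundant genes of each list and the genes adjacent to Piwil2; all others were named after their values were seen. The parts of this rule that need calls or values per library could not be applied. Alternatives were the total without the most abundant gene and, chosen after seeing the data, minimum levels of 0.5 and 2 CPM and the ratio per kilobase.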

Additional observations from a re-analysis of the deposited data

How the results depend on the processing

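The number of members at or above 1 CPM, 2, was also 2 when the total left out the most abundant gene and with a minimum of 2 CPM, and 3 with a minimum of 0.5 CPM. Without the most abundant gene in the total, the mean level of Piwil2 was 29.0 CPM in place of 20.4 CPM, since this scaling raises every other gene 1.42 times. The ratio of Piwil2 over Tdrkh was 10.5 per kilobase of exon and 9.06 by CPM. The minimum levels of 0.5 and 2 CPM and the ratio per kilobase were chosen after seeing the data.

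No paired analysis was possible because the count columns carry no names that match the samples. For the same reason the alternatives of DESeq2 size factors, no filter on low counts, DESeq2 and edgeR's exact test, each library left out, other thresholds and another prior count were not run. Levels near 0.163 CPM are limited by depth, which is not known per library.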
